A study of Mus musculus with 8 samples.

Results

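The genes of the proteasome were examined in dorsal root ganglia, the clusters of sensory neuron cell bodies and their glia beside the spinal cord. The series holds 8 RNA libraries of wild-type (WT) Swiss Webster (SW) mice, an outbred stock, all given saline: 4 labelled female and 4 labelled male, each numbered 1 to 4. Total RNA was depleted of ribosomal RNA and made into 3′ end libraries with the QuantSeq kit, which places the reads of a transcript near its end, whatever its length. The labels give no age. They also leave unstated whether libraries came from separate animals, so the spread behind each p-value is that of these 8 samples and may be technical. Members were taken by symbol: Psm followed by a letter from a to g and a number, without the immune subunits Psmb8 and Psmb9. The rule found 46 of 48315 gene symbols, which were divided by role into the core alpha ring (8 genes), the core beta ring (9), the ATPases (6), the non-ATPase subunits of the regulatory particle (11), assembly chaperones of its base (3), activators (4), an inhibitor (1) and assembly chaperones of the core (4).

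The proteasome is the barrel-shaped protease that degrades proteins tagged with ubiquitin. Its core is a stack of alpha and beta rings with the cutting sites of the beta subunits facing inward. The core is capped by a regulatory particle whose ATPases unfold the substrate while non-ATPase subunits bind and remove the ubiquitin. Activators and inhibitors bind the core in place of that cap, and dedicated chaperones put the rings together. Subunits of a complex are needed in fixed proportions. Cells raise many of these genes together when the protease is inhibited, through the transcription factor NFE2L1. In dorsal root ganglia the complex is known as the target of bortezomib, a cancer drug that blocks it and causes a painful peripheral neuropathy.

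Depth lay between 7497805 and 12155800 counted reads per library. The unit used throughout is counts per 1000000 counted reads (CPM), in which 3 reads correspond to between 0.247 and 0.4001 CPM. The sex genes of both replicate 1 libraries went against their labels. Xist, the RNA that silences an X chromosome in female cells, had 0.270, 162, 349 and 319.9 CPM in female 1 to 4, against 294, 1.63, 2.45 and 5.44 CPM in male 1 to 4. Ddx3y, a Y-linked helicase, had 102, 0.329, 0.378 and 0.4001 CPM in female 1 to 4, against 0.855, 73.3, 67.0 and 131 CPM in male 1 to 4. The libraries labelled female 1 and male 1 are therefore named by label only, and differences between the labels are given with and without them. Male 2 stood apart in markers of the central nervous system, which summed to 319 CPM there and to between 12.3 and 22.4 CPM in the other 7 libraries. Markers of sensory neurons, all 14 of which were above the filter, summed to between 13135 and 26729.6 CPM.

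Promoters are shown for 7 members that carry the results. Psma2 and Psmb6 are core genes with wide ranges. Psmd2, Psmd13 and Psmc1 stood high in female 1, 3 and 4, where Psma2 and Psmb6 were low. The others are Psma7, whose groups did not overlap, and Psmb5, a core gene with a narrow range. Each promoter runs from 250 bases before the RefSeq start of the gene to 50 bases after it, 5′ to 3′, build GRCm38.p6. Capitals mark matches on either strand to 4 motifs known from proteasome genes or common in housekeeping promoters: the antioxidant response element TGACNNNGC, the CCAAT box, the ETS core CCGGAAG and the NRF1 site GCGCATG. NRF1 here means the nuclear respiratory factor of that name, which is not NFE2L1. Psma2 lies at chr13:14612992-14613291 on the forward strand, Psmb6 at chr11:70525107-70525406 on the forward strand, and Psmd2 at chr16:20651402-20651701 on the forward strand. Psmd13 lies at chr7:140882144-140882443 on the forward strand, Psmc1 at chr12:100109952-100110251 on the forward strand, Psma7 at chr2:180042415-180042714 on the reverse strand, and Psmb5 at chr14:54617946-54618245 on the reverse strand.
Psma2: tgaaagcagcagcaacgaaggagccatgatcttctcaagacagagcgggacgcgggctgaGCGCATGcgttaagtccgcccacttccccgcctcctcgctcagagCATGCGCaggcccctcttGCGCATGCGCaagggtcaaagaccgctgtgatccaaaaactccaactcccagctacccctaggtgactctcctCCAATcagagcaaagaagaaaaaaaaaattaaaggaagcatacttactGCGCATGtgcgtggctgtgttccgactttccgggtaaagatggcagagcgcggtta
Psmb6: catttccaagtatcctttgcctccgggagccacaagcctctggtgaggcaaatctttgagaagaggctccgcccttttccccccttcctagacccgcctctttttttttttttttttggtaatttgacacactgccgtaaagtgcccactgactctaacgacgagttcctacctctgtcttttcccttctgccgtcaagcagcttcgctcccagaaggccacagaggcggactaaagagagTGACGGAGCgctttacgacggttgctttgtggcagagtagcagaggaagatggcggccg
Psmb5: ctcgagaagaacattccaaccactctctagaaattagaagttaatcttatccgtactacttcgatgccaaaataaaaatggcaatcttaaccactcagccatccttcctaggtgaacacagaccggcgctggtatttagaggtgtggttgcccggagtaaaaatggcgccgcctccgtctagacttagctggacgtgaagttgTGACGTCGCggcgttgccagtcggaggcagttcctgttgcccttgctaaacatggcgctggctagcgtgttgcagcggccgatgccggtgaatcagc
Psma7: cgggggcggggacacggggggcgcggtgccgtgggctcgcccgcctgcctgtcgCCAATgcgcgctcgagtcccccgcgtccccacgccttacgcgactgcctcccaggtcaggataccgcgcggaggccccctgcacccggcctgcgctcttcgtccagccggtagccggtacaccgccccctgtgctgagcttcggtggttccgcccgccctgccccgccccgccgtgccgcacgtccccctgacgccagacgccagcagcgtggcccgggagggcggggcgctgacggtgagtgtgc
Psmc1: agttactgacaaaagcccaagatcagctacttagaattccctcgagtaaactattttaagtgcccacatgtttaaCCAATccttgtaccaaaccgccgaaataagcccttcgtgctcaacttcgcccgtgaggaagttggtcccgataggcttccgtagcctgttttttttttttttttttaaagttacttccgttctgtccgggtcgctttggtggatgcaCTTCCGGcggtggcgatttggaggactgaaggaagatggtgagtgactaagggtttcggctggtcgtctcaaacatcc
Psmd2: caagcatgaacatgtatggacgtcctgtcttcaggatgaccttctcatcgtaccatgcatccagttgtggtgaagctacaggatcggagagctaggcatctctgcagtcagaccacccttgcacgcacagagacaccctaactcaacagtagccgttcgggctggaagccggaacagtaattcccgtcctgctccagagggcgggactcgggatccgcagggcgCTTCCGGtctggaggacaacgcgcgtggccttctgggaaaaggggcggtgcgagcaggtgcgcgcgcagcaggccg
Psmd13: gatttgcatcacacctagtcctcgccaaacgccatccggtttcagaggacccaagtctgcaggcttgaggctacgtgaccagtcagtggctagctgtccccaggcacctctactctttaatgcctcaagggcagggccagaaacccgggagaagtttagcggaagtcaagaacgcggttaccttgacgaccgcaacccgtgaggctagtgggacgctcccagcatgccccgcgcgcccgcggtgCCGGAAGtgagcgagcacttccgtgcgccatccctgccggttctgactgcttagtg
Psma2 held 5 NRF1 matches, of which those at positions -127 and -124 (the start is position 0) overlap each other on opposite strands, and a CCAAT box at -54. Psmd2 and Psmc1 held an ETS core at -26 and -28 on the other strand, and Psmd13 held it at -6 on the given strand. Psmc1 and Psma7 held a CCAAT box, at -175 and -196. Psmb6 and Psmb5 each held an antioxidant response element, at -9 and -47. A match shows only that these letters are present.

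Promoter sequences matched 37 of the 44 members that passed the filter described with the levels; Psmb1, Psmb2, Psmb7, Psmc3, Psmd3, Psmd7 and Psmg2 had no entry. The ETS core was found in 14 of the 37 (37.8%), in 18.5% of the promoters of the 10388 tested genes with an entry, and in 9.93% of all 27025 promoters. It lay in 6 of 9 non-ATPase promoters and 3 of 5 ATPase promoters, and in 1 of 7 alpha and 0 of 5 beta promoters. The CCAAT box was in 12 of 37 (32.4%, against 42.4% of tested and 41.1% of all promoters), 5 of them among the 7 alpha genes. The antioxidant response element was in 6 of 37 (16.2%, against 17.0% of tested and 14.0% of all promoters), and the NRF1 site in 5 (13.5%, against 7.67% and 4.41%).

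Of the 46 members, 44 averaged 1 CPM or more across the libraries and were tested, as were 14505 genes in all. Below this filter was Psma8, the alpha subunit of the testis proteasome, at 0 CPM in female 3 (which allows up to 0.378 CPM) and at most 0.631 CPM elsewhere. Psmb11, the beta subunit of the thymus proteasome, was also below it, at 0.252 to 0.977 CPM. Because 3′ end reads do not scale with transcript length, CPM were compared between genes without a division by length. The 44 means spanned a 206-fold range. The regulatory particle genes Psmd2, Psmd13 and Psmd4 and the alpha gene Psma7 averaged 1057, 849, 772 and 507 CPM and made up 38.6% of the summed CPM of the 44. A further 38 genes averaged between 17.5 CPM (Psmg4) and 480.8 CPM (Psmb1). The lowest of those tested were Psmb2, a core beta subunit, at 9.39 CPM and Psme1, an activator subunit, at 5.12 CPM. The last 300 bases of 10 members matched another annotated transcript nearly identically, and 11 members overlap another gene, so how the counting divided their reads is uncertain. For Psmb11 there were 37 such transcripts, the highest at a mean of 122 CPM against 0.725 CPM for Psmb11 itself, so its level is uncertain. The matching transcripts averaged at most 5.35 CPM for Psmb5, 0.662 CPM for Psmd2, 0.228 CPM for Psmb3, 0.125 CPM for Psma5, 0.113 CPM for Psme2 and 0.0632 CPM for Psme1. The ends of Psmb7 and Psmc3 overlap Nek6 (13.5 CPM) and Slc39a13 (24.97 CPM) on the opposite strand, and Psmg3 overlaps Gm26938 on its own strand. Psmd1 overlaps an annotated copy of its own end, Gm21972, on the same strand, and its values were whole reads in 1 of 8 libraries, so its level is uncertain. The median coefficient of variation over the 8 libraries was 32.1% for the 44 tested members and 32.5% for all tested genes, and it ran from 11.1% for Psme3 to 72.9% for Psma2. In bulk ganglia, fewer cells of a type and less RNA per cell cannot be told apart, which holds for each difference between libraries given here.

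**Figure D1:**
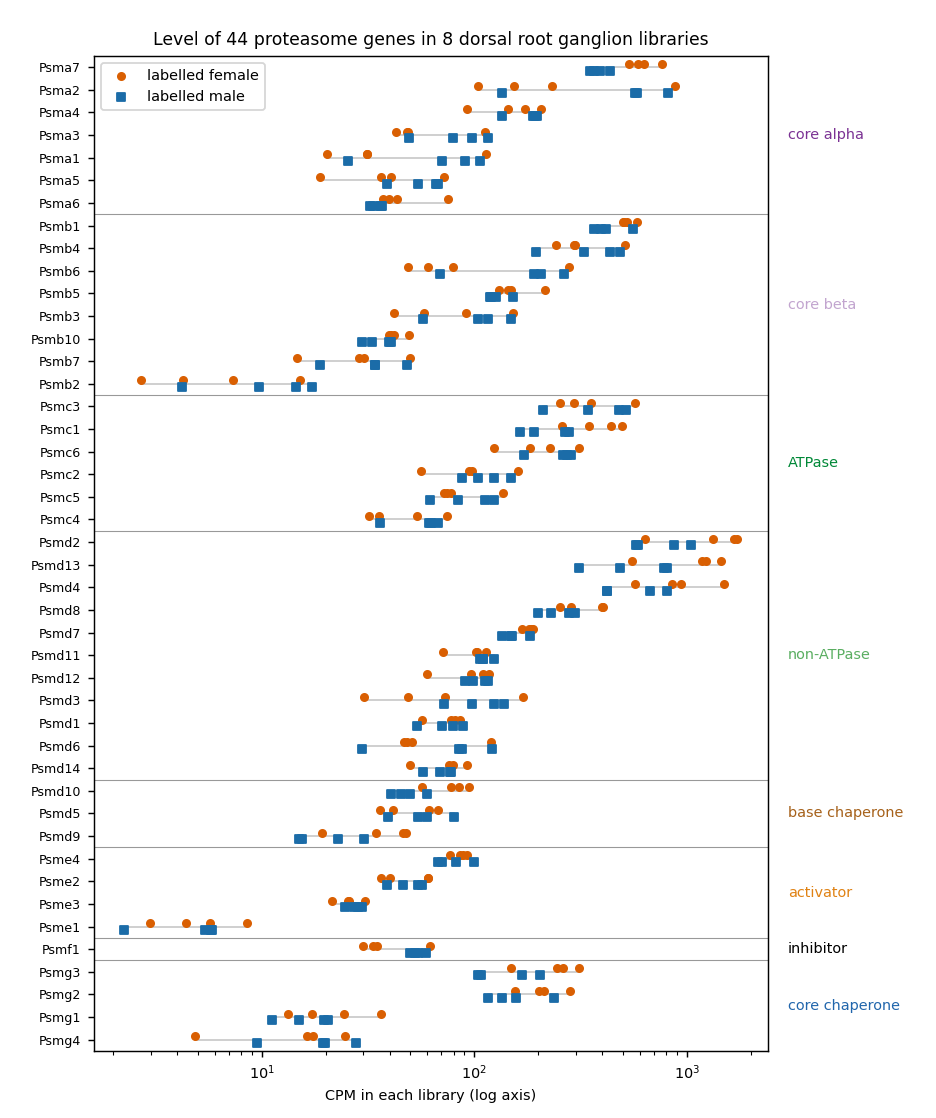
Level of the 44 tested proteasome genes in CPM (log axis), with 1 point per library, circles for the 4 labelled female and squares for the 4 labelled male, and a line from the lowest to the highest library. Psmd2, Psmd13 and Psmd4 lie farthest right and Psme1 and Psmb2 farthest left, and Psma2 has the longest line, from 105 to 882 CPM.

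Among the core alpha genes, Psma2 ranged most widely, and Psma6 and Psma7 stood higher in every library labelled female than in any labelled male. Psma2, a gate-forming alpha subunit, had 105, 882, 231 and 155 CPM in female 1 to 4, against 585, 814, 573 and 136 CPM in male 1 to 4. It was high in female 2 and in male 1, 2 and 3 and low in the other 4 libraries, an 8.42-fold range across which the labels overlapped. Its log2 difference between the labels, female minus male on log2(CPM + 1) with limma and Benjamini-Hochberg adjustment over all tested genes, was -0.87 (SE 0.67, adjusted p 0.539, and -0.33 without both replicate 1 libraries). Psma7, another alpha subunit, had 588, 537, 761 and 629.9 CPM in female 1 to 4, against 351, 365, 437 and 389 CPM in male 1 to 4. It averaged 629 ± 96.2 CPM in female and 386 ± 37.6 CPM in male libraries (SD, n = 4 each). All 4 libraries labelled female stood above all 4 labelled male, with a log2 difference of 0.70 (SE 0.20, adjusted p 0.446, and 0.68 without both replicate 1 libraries). Psma6 was the other member whose groups did not overlap, at 37.2 to 75.4 CPM in female and 32.3 to 36.7 CPM in male libraries. Thus 2 of 44 members stood apart by label, where 4.23% of all tested genes did. The remaining alpha genes, Psma1, Psma3, Psma4 and Psma5, were lowest in female 1 and highest in female 2 or male 2, with ranges between 2.23-fold for Psma4 and 5.62-fold for Psma1.

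Among the beta subunits, those that carry the cutting sites had different profiles. Psmb6, the caspase-like site, had 48.6, 279.8, 79.9 and 60.6 CPM in female 1 to 4, against 191, 265, 207 and 69.2 CPM in male 1 to 4. Its low and high libraries were those of Psma2, and the log2 difference between the labels was -0.86 (SE 0.54, adjusted p 0.481, and -0.49 without both replicate 1 libraries). Psmb5, the chymotrypsin-like site and the main target of bortezomib, had 131, 144, 214 and 149 CPM in female 1 to 4, against 127, 118, 153 and 119.6 CPM in male 1 to 4. Its 1.81-fold range overlapped between the labels, with female 3 highest and a log2 difference of 0.28 (SE 0.21, adjusted p 0.521, and 0.36 without both replicate 1 libraries). Psmb7, the trypsin-like site, had 14.6, 49.8, 30.4 and 28.7 CPM in female 1 to 4, against 34.1, 48.5, 34.1 and 18.9 CPM in male 1 to 4. Female 1 and male 4 were lowest and female 2 and male 2 highest, and the difference was -0.18 (SE 0.37, adjusted p 0.817, and 0.15 without both replicate 1 libraries). Psmb10, which replaces Psmb7 in the immunoproteasome, had 39.8, 49.3, 42.0 and 40.5 CPM in female 1 to 4, against 33.0, 39.8, 40.7 and 29.7 CPM in male 1 to 4. Its range of 1.66-fold was among the narrowest of the members, and the difference was 0.26 (SE 0.19, adjusted p 0.516, and 0.26 without both replicate 1 libraries). Psmb1, the most abundant beta gene, had 499, 524, 582 and 505 CPM in female 1 to 4, against 419, 393, 558 and 366 CPM in male 1 to 4. The difference was 0.30 (SE 0.20, adjusted p 0.496, and 0.31 without both replicate 1 libraries). The ratio of Psmb5 to Psmb6 was 2.69, 0.513, 2.68 and 2.46 in female 1 to 4, against 0.665, 0.447, 0.738 and 1.73 in male 1 to 4. Psmb5 was the higher in female 1, 3 and 4 and male 4, and Psmb6 in the other 4.

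The ATPases, which form the unfolding ring at the base of the regulatory particle, divided 5 against 1, with female 2 highest for all but Psmc1. Psmc3, the most abundant, had 253, 570.4, 355 and 293 CPM in female 1 to 4, against 343, 479.8, 518 and 211 CPM in male 1 to 4. It was lowest in male 4, and the labels overlapped, with a log2 difference of -0.07 (SE 0.33, adjusted p 0.932, and 0.06 without both replicate 1 libraries). Psmc6 had 125, 312, 227 and 183 CPM in female 1 to 4, against 272, 261, 285 and 172 CPM in male 1 to 4. It was lowest in female 1, with a difference of -0.28 (SE 0.29, adjusted p 0.631, and 0.0054 without both replicate 1 libraries). Psmc1, whose tail opens the gate of the core, had another profile, with 495, 260.2, 440.2 and 346 CPM in female 1 to 4, against 191, 164, 268 and 279 CPM in male 1 to 4. Female 1 was its highest library and male 2 its lowest, and only female 2 lay within the male range. The difference was 0.76 (SE 0.26, adjusted p 0.446, and 0.56 without both replicate 1 libraries). The ratio of Psmc1 to Psmc3 was 1.95, 0.456, 1.24 and 1.18 in female 1 to 4, against 0.557, 0.341, 0.517 and 1.32 in male 1 to 4. It was above 1 in the same 4 libraries in which Psmb5 exceeded Psmb6. The other ATPase genes, Psmc2, Psmc4 and Psmc5, had means of 109, 52.9 and 93.0 CPM and female 2 for their highest library.

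The non-ATPase subunits held the most abundant members, Psmd2, Psmd13 and Psmd4, which stood high in female 1, 3 and 4, where Psma2 was low. Psmd13, a lid subunit, had 1444, 554, 1179.8 and 1230.1 CPM in female 1 to 4, against 312, 485, 779 and 809.7 CPM in male 1 to 4. It was highest in female 1 and lowest in male 1, and female 2 lay within the male range. The difference was 0.90 (SE 0.38, adjusted p 0.446, and 0.46 without both replicate 1 libraries). Psmd2, the base scaffold on which ubiquitin shuttles dock, had 1667, 638, 1722 and 1335 CPM in female 1 to 4, against 589, 579.6, 874 and 1050.4 CPM in male 1 to 4. Its difference was 0.74 (SE 0.35, adjusted p 0.446, and 0.49 without both replicate 1 libraries). Psmd4, a ubiquitin receptor, followed it, at 855, 572, 1492 and 939.7 CPM in female 1 to 4 and 421, 420.2, 674 and 806 CPM in male 1 to 4. For both genes female 3 was highest and male 2 lowest. Psmd3, another lid subunit, was ordered otherwise, with 30.3, 170.0, 73.1 and 48.8 CPM in female 1 to 4, against 97.5, 138, 124 and 72.2 CPM in male 1 to 4. It was lowest in female 1 and highest in female 2, with a difference of -0.67 (SE 0.44, adjusted p 0.489, and -0.34 without both replicate 1 libraries). Psmd14, the subunit that cuts ubiquitin off the substrate, had 50.03, 79.4, 92.0 and 76.4 CPM in female 1 to 4, against 77.1, 69.4, 77.4 and 57.4 CPM in male 1 to 4. Its difference of 0.06 (SE 0.22, adjusted p 0.907, and 0.28 without both replicate 1 libraries) was smaller than its spread within a label. The ratio of Psmd2 to Psmd3, subunits of the same particle, was 55.0, 3.76, 23.6 and 27.4 in female 1 to 4, against 6.04, 4.19, 7.07 and 14.5 in male 1 to 4, a 14.6-fold range. Psmd7, the partner of Psmd14, had the narrowest range of the 11, from 135 to 190 CPM (1.41-fold). Sirt3 overlaps Psmd13 on the opposite strand, but no other transcript matched the last 300 bases of Psmd13 nearly identically. Only reads in the stretch that both genes share cannot be told apart if strand was not used. The strand setting is not given in the sources used here.

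**Figure D2:**
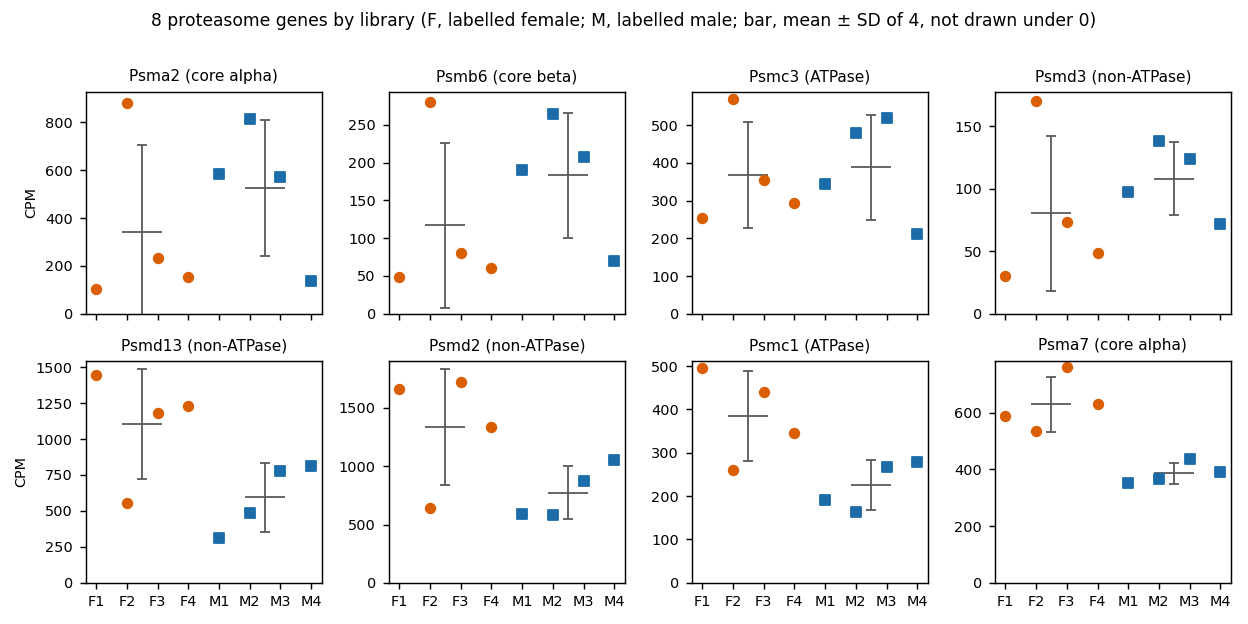
CPM of 8 proteasome genes in each library, with female 1 to 4 (F, circles) left of male 1 to 4 (M, squares), and the mean with its SD over the 4 libraries of a label; the SD of Psma2 in female libraries exceeds its mean, and error bars are not drawn under 0. The upper genes (Psma2, Psmb6, Psmc3, Psmd3) are highest in female 2, or for Psmc3 in female 2 followed by male 3, and the lower genes Psmd13, Psmd2 and Psmc1 are high in female 1, 3 and 4; in Psma7 all female libraries lie above all male ones.

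The assembly chaperones of the base escort the ATPases into their ring. Psmd10, also known as gankyrin, had 77.6, 56.8, 84.4 and 94.6 CPM in female 1 to 4, against 40.8, 45.2, 60.1 and 50.05 CPM in male 1 to 4. Female 2, at 56.8 CPM, was the only library labelled female within the male range, and the difference was 0.66 (SE 0.22, adjusted p 0.446, and 0.57 without both replicate 1 libraries). Psmd9 had 47.9, 19.2, 46.4 and 34.7 CPM in female 1 to 4, against 15.03, 15.6, 22.8 and 30.4 CPM in male 1 to 4. Female 2 was again the lowest of its label, with a difference of 0.77 (SE 0.33, adjusted p 0.446, and 0.49 without both replicate 1 libraries). Psmd5 had 36.0, 41.5, 61.5 and 67.8 CPM in female 1 to 4, against 54.1, 39.5, 59.8 and 80.2 CPM in male 1 to 4. It was highest in male 4, with a difference of -0.18 (SE 0.27, adjusted p 0.753, and -0.04 without both replicate 1 libraries). The core assembly chaperones work as the pairs Psmg1 with Psmg2 and Psmg3 with Psmg4. Psmg3 had 262, 149, 312 and 245 CPM in female 1 to 4, against 104, 108, 204 and 168 CPM in male 1 to 4. Its log2 difference was 0.74 (SE 0.29, adjusted p 0.446, and 0.54 without both replicate 1 libraries). Its partner Psmg4 had 4.87, 24.7, 17.4 and 16.4 CPM in female 1 to 4, against 19.8, 27.8, 19.4 and 9.54 CPM in male 1 to 4. Its difference was -0.35 (SE 0.45, adjusted p 0.694, and 0.14 without both replicate 1 libraries). The lowest library was male 1 for Psmg3 and female 1 for Psmg4. Psmg2 and Psmg1 averaged 187 and 19.7 CPM and were both highest in female 3.

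The activators had the steadiest sum of any role with more than 1 gene. Psme4, a nuclear activator, had 92.6, 76.7, 85.6 and 88.7 CPM in female 1 to 4, against 70.4, 67.2, 82.1 and 99.5 CPM in male 1 to 4. The labels overlapped, with a difference of 0.12 (SE 0.19, adjusted p 0.762, and 0.03 without both replicate 1 libraries). Psme3, the nuclear relative of Psme1 and Psme2, had 25.7, 25.6, 30.8 and 21.5 CPM in female 1 to 4, against 29.6, 24.6, 27.1 and 28.3 CPM in male 1 to 4, a 1.43-fold range with a difference of -0.09 (SE 0.19, adjusted p 0.828, and -0.05 without both replicate 1 libraries). Psme1 and Psme2 encode the subunits of the interferon-induced activator, but Psme2 was between 7.12 and 17.3 times Psme1. The last 300 bases of each matched another transcript nearly identically, so how the counting divided their reads is uncertain. Psme1 had only 22 to 104 reads per library. Psme1 had 2.97, 8.56, 4.41 and 5.74 CPM in female 1 to 4, against 5.86, 5.76, 5.39 and 2.26 CPM in male 1 to 4, a difference of 0.13 (SE 0.34, adjusted p 0.860, and 0.44 without both replicate 1 libraries). Psme2 had 36.4, 60.9, 40.1 and 60.8 CPM in female 1 to 4, against 46.4, 57.0, 54.6 and 39.1 CPM in male 1 to 4, a difference of -0.02 (SE 0.23, adjusted p 0.979, and 0.09 without both replicate 1 libraries), and neither gene separated the labels. Psmf1, which binds the core and inhibits it in the test tube, had 29.8, 62.2, 33.5 and 35.1 CPM in female 1 to 4, against 59.3, 54.2, 52.5 and 49.9 CPM in male 1 to 4. Female 2 stood above every male library and the other 3 female libraries below them all, with a difference of -0.47 (SE 0.24, adjusted p 0.449, and -0.31 without both replicate 1 libraries). Summed over the 4 genes, activators moved by no more than 1.16-fold across the 8 libraries, from 152 to 177 CPM.

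The summed CPM of the regulatory particle over that of the core ranged 2.67-fold between libraries, a range that rested on 3 abundant genes, Psmd2, Psmd13 and Psmd4. The 44 tested members summed to 8638, 8832, 10417 and 8624 CPM in female 1 to 4, against 6588, 7529, 8602 and 6712 CPM in male 1 to 4, a 1.58-fold range. The 15 core genes summed to 1925, 3695, 2680.4 and 2255 CPM in female 1 to 4 and 2667, 3212, 2999 and 1665 CPM in male 1 to 4, lowest in male 4 and female 1. The 17 regulatory particle genes summed to 5924, 4386, 6702 and 5472 CPM in female 1 to 4 and 3324, 3703, 4756 and 4355 CPM in male 1 to 4. Regulatory particle over core was thus 3.08, 1.19, 2.50 and 2.43 in female 1 to 4, against 1.25, 1.15, 1.59 and 2.62 in male 1 to 4, with means of 2.30 ± 0.796 in female and 1.65 ± 0.670 in male libraries (SD, n = 4 each), and the labels overlapped. Female 2 lay beside male 1 and 2, and male 4 beside female 3 and 4. Psmd2, Psmd13 and Psmd4 alone summed to 3966, 1765, 4393 and 3505 CPM in female 1 to 4 and 1321, 1485, 2327 and 2666 CPM in male 1 to 4, a 3.33-fold range. Without them, a choice made after the values were seen, the other 14 genes over the core gave 1.02, 0.709, 0.861 and 0.872 in female 1 to 4, against 0.751, 0.691, 0.810 and 1.01 in male 1 to 4, a 1.47-fold range. Most genes of the particle did not follow its sum: in female 1 over female 2 the sum was higher but 11 of 17 genes were lower (median log2 -0.66), and in female 3 over female 2 it was higher with 10 of 17 lower (median -0.14). Over all tested genes 63.3% and 61.6% were lower in these pairs (medians -0.28 and -0.24), so the counts of the particle were near the share of all genes. The ATPase sum over the core sum ranged less, between 0.382 and 0.537. Among single pairs of genes, Psmd13 over Psma2 ranged 25.9-fold, with 13.8, 0.628, 5.10 and 7.95 in female 1 to 4, against 0.533, 0.596, 1.36 and 5.97 in male 1 to 4. These genes have the most positive and the most negative difference between the labels (0.90 and -0.87), so the wide range follows in part from the choice. No ratios of other gene pairs were set beside it as a background.

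**Figure D3:**
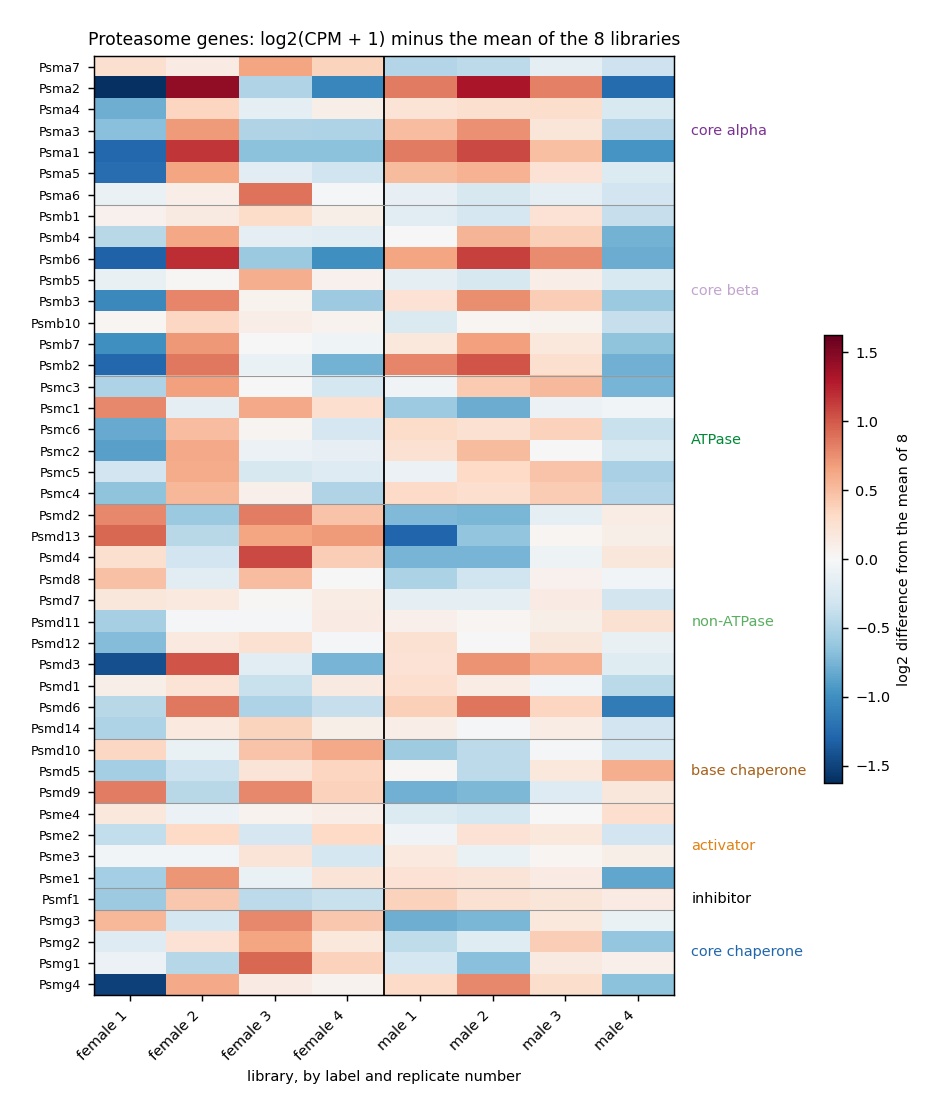
Log2(CPM + 1) of each tested member minus its mean over the 8 libraries, in columns by label and replicate number (female left of male) and rows by role; red is above the mean and blue below. Most core and ATPase rows are blue in female 1 and male 4 and red in female 2 and male 2, while Psmc1, Psmd2, Psmd13, Psmd4 and Psmd9 show the reverse in female 1, female 2 and male 2.

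Female 1 held the lowest value of 20 members and male 4 of 11, and female 2 held the highest of 18 and female 3 of 13. Over all tested genes, female 1 was lowest for 29.3%, male 4 for 6.88%, female 2 highest for 16.4% and female 3 for 10.7%. To describe the pattern within a label, pairs of libraries were set against each other, with no test. They were chosen after the values were seen and leave out both replicate 1 libraries and male 2. In female 3 over female 2, 11 of 15 core genes were lower (median log2 -0.73) as were 5 of 6 ATPases (median -0.57) and 5 of 11 non-ATPase genes (median 0.09), against a median of -0.24 and 61.6% lower over all tested genes. Of the 44 members, 6 were at least 2-fold lower, where 20% of all genes were, and 6 at least 2-fold higher, where 5.83% were: Psmd2, Psmg1, Psmd4, Psmd9, Psmd13 and Psmg3. In male 4 over male 3, all 15 core genes were lower (median -0.68), against 47.6% of all tested genes and an all-gene median of 0.04. The other parts were mostly lower there too, with 5 of 6 ATPases (median -0.81), 7 of 11 non-ATPase genes (median -0.31) and all 4 core chaperones (median -0.62). In that pair 9 members were at least 2-fold lower (7.14% of all genes) and 0 at least 2-fold higher (5.96%). In female 4 over female 2, 13 of 15 core genes were lower, where 57.8% of all genes were, with 9 members at least 2-fold lower (15.2% of all genes) and 2 at least 2-fold higher (4.23%), namely Psmd13 and Psmd2.

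Psma2 showed the widest step in both pairs, with log2 ratios of -1.93 for female 3 over female 2 and -2.07 for male 4 over male 3. Psma1, an alpha subunit, had -1.83 and -1.44, and Psmb6 had -1.80 and -1.57. The sign was the same in both pairs for 32 of 44 members (72.7%), near the 69.3% of all tested genes. It was negative in both for 24, and positive in both for Psmc1, Psmd2, Psmd4, Psmd5, Psmd9, Psmd13, Psme3 and Psme4. In male 4 over male 3, however, Psmc1, Psmd13 and Psme3 stood at only 0.059, 0.055 and 0.063. These values lay near the all-gene median of 0.04 in that pair. Across the 44 genes, which share their libraries and are not independent replicates, Spearman's rho between the log2 ratio and transcript length was 0.06 in female 3 over female 2 and 0.42 in male 4 over male 3, and with GC content it was 0.09 and -0.04. The 4 motifs differed in direction, and none was tested. Members with the ETS core in the promoter had a median log2 ratio of 0.51 in female 3 over female 2 (10 of 14 higher), against -0.59 for the 23 without it (7 higher). The median was -0.0032 in male 4 over male 3 (7 of 14 higher), against -0.47 (2 of 23 higher). Members with a CCAAT box had medians of 0.23 in the female pair, against -0.46 without it, and -0.25 in the male pair, against -0.40. For the antioxidant response element they were 0.12, against -0.46, and -0.33, against -0.40. The 5 members with an NRF1 site lay the other way, at -0.71 in the female pair (1 of 5 higher), against 0.04 for the 32 without it, and at -0.95 in the male pair (0 of 5 higher), against -0.33. Motif and role go together in these genes, and the part of each was not tested. Over all tested genes, with or without a motif, the medians were -0.24 in the female pair and 0.04 in the male pair. The split by motif was not made over all tested genes, so these contrasts have no background of their own.

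**Figure D4:**
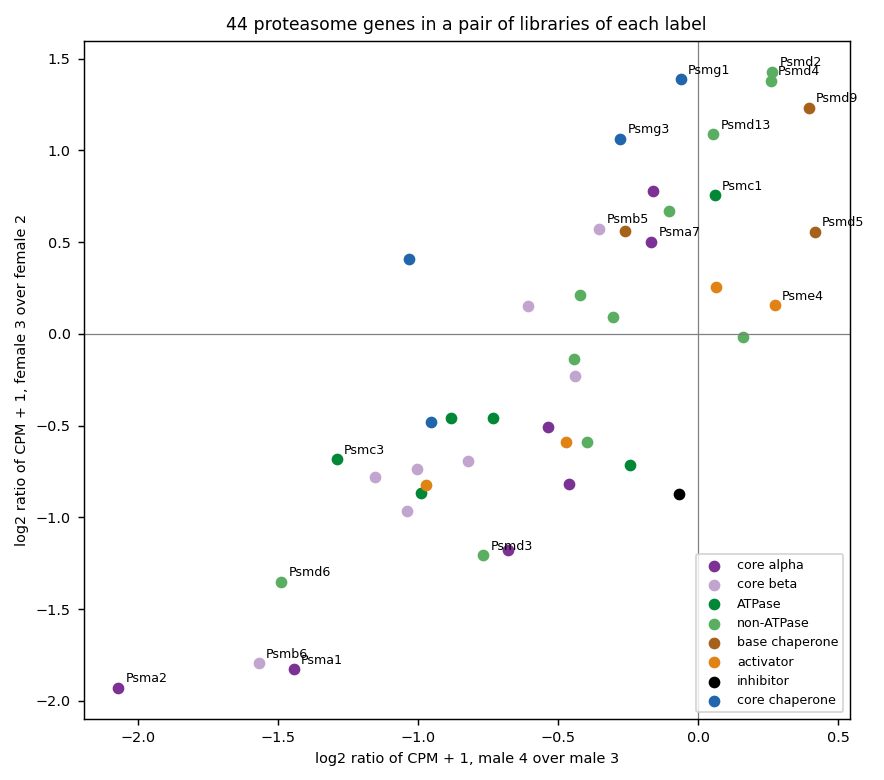
Log2 ratio of CPM + 1 for 44 proteasome genes in male 4 over male 3 (horizontal) and female 3 over female 2 (vertical), with 1 point per gene coloured by role. Psma2, Psmb6 and Psma1 lie at the lower left, near -2 on the vertical axis, and Psmd2, Psmd4 and Psmd9 at the upper right.

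Other abundant complexes differed in the same pairs. In male 4 over male 3, 69 of 79 cytosolic ribosomal protein genes and 73 of 76 nuclear genes of oxidative phosphorylation were lower, with medians of -0.69 and -1.13. In female 3 over female 2 they were lower for 63 of 79 and 64 of 76, with medians of -0.82 and -0.99. Cell type markers differed between the same libraries. Sensory neuron markers summed to 23344, 16517, 26729.6 and 22512 CPM in female 1 to 4 and 13869, 13135, 18479 and 19393 CPM in male 1 to 4, and none was at 0 in all libraries. The 6 markers of satellite glia, which wrap the neurons, summed to 495, 1186, 623 and 683 CPM in female 1 to 4 and 1215, 1279, 961 and 612 CPM in male 1 to 4. Female 2, male 1 and male 2, where Psma2 was high and Psmd2 low, had the 3 lowest neuronal sums and the 3 highest glial sums. Prph, a neuronal intermediate filament, had 1999.5, 722, 2606 and 1823 CPM in female 1 to 4, against 721, 569, 1185 and 1799 CPM in male 1 to 4, lowest in male 2, male 1 and female 2, as was Psmd2. Other neuronal markers were ordered otherwise. Snap25 had 463, 652, 802 and 908 CPM in female 1 to 4, against 870, 678, 854 and 996 CPM in male 1 to 4, lowest in female 1. Tubb3 had 2336, 2048, 3363 and 2099 CPM in female 1 to 4, against 2152, 1766, 3271 and 3237 CPM in male 1 to 4. Fabp7, a satellite glia marker, had 22.9, 335, 74.9 and 104 CPM in female 1 to 4, against 345, 326, 332 and 70.6 CPM in male 1 to 4, high in the 4 libraries where Psma2 was high. Several other marker lists, but not all, were high in the same 4 libraries, female 2 and male 1, 2 and 3. The 7 Schwann cell markers summed to 10792, 18141, 8795 and 13389 CPM in female 1 to 4 and 17151, 19732, 16849 and 13146 CPM in male 1 to 4. The 6 fibroblast markers summed to 630.3, 2418, 939 and 1482 CPM in female 1 to 4 and 2054, 2287, 1573 and 1135 CPM in male 1 to 4. The 4 adipocyte markers summed to 61.7, 343, 107 and 225 CPM in female 1 to 4 and 299, 315, 264 and 99.6 CPM in male 1 to 4. Neutrophil and bone marrow markers (5 genes) summed to 105, 294, 91.5 and 89.5 CPM in female 1 to 4 and 187, 392, 375 and 92.3 CPM in male 1 to 4. Mural cell and erythroid markers were also higher in each of those 4 than in any of the others, by a narrow margin for erythroid markers. Macrophage markers (8 genes) went the other way, with 317, 258, 375 and 391 CPM in female 1 to 4 and 162, 197, 188 and 262 CPM in male 1 to 4. Endothelial markers stayed between 99.4 and 129 CPM. Those of endothelium, skeletal muscle and T and B cells did not divide the libraries in this way. None of these lists had a gene at 0 in all libraries. The first principal component of the tested genes without those of the proteasome, which held 59.2% of their variance, also placed female 2 and male 1, 2 and 3 on one side and female 1, 3 and 4 and male 4 on the other. The 5 nuclear non-coding RNAs, a sign of how much nuclear or unspliced RNA was captured, summed to 9688, 6275, 17979 and 18213 CPM in female 1 to 4 and 22949, 15155, 9779 and 48419 CPM in male 1 to 4, highest in male 4. The part of cell composition, RNA quality and depth in the pattern was not tested.

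Between the labels, 0 of 44 members passed the threshold of an adjusted p of 0.05 (limma with Benjamini-Hochberg adjustment over 14505 genes), and 0 of all genes did (0%); member adjusted p lay between 0.446 and 0.979. At an unadjusted p under 0.05 stood 6 members, Psma7, Psmc1, Psmd9, Psmd10, Psmd13 and Psmg3, all higher in the libraries labelled female, where 11% of all genes had such a p and 2.74% had it with a higher female level. Positive differences were found for 20 members and negative ones for 24, a median of -0.07, against 32.5% positive and a median of -0.18 over all tested genes. Scaling by median ratios moved the all-gene median to -0.01. The members then stood at 28 positive and 16 negative, with a median of 0.14. Relative to the all-gene median, 28 of 44 members lay above it with the deposited scaling, with median ratios and with TMM (trimmed mean of M values) factors, and the member median exceeded it by 0.12, 0.14 and 0.13. By role, the median minus the all-gene median was -0.30 for core alpha, 0.06 for core beta, 0.02 for ATPases, 0.24 for non-ATPases, 0.84 for base chaperones, 0.24 for activators, 0.58 for core chaperones and -0.29 for the inhibitor Psmf1.

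**Figure D5:**
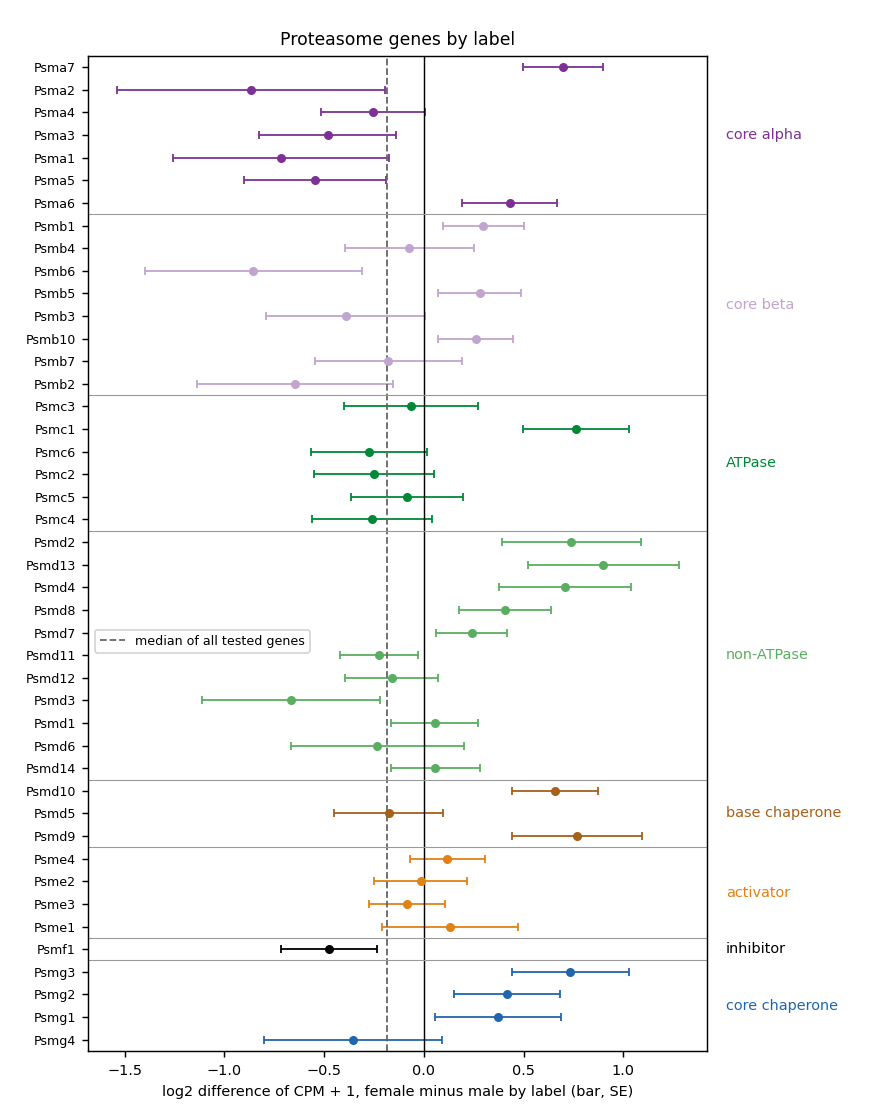
Log2 difference of CPM + 1, female minus male by label, for the 44 tested members by role, with the SE as bars, a solid line at 0 and a dashed line at the median of all tested genes, -0.18. Psmd13 lies farthest right at 0.90 and Psma2 farthest left at -0.87, and 0 members passed the threshold.

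The calls depended on which libraries were included. Without female 2, 10 members passed: Psma7, Psmc1, Psmd2, Psmd9, Psmd10, Psmd13 and Psmg3 higher and Psmb6, Psmd3 and Psmf1 lower in the libraries labelled female, with adjusted p between 0.0409 and 0.0465. Over all genes 9.33% passed, 1.67% higher and 7.67% lower. Psmd13 then differed by 1.20 (SE 0.32, adjusted p 0.0434), and Psmb6 by -1.40 (SE 0.38, adjusted p 0.0444). That set still holds both replicate 1 libraries. With all 8 libraries weighted by how far each strayed from its label's mean (limma's array weights, lowest for female 2), 18 members passed, 8 higher and 10 lower and among them the 10 that passed without female 2, where 30.1% of all genes passed. Without the replicate 1 libraries, and with female 2 kept, 0 members passed and the smallest member adjusted p was 0.946, where 0.0414% of all genes passed. At an unadjusted p under 0.05 stood 1 member, Psma7, where 2.43% of all genes did. Psma7 then differed by 0.68 (SE 0.24), close to its value with all libraries, Psmd13 by 0.46 (SE 0.38) and Psma2 by -0.33 (SE 0.79). The members were then 29 positive and 15 negative, with a median of 0.10 against -0.12 for all genes.

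Genes that serve the proteasome without being subunits by symbol were read from a list of 34, of which 31 were tested; 0 passed in either direction, and 10 were positive and 21 negative, with a median of -0.19, near the 32.5% positive and -0.18 of all tested genes. Without female 2, 3 of the 31 passed, all lower in the libraries labelled female: Uba6 (-0.99, adjusted p 0.0364), Ube2k (-0.80, adjusted p 0.0489) and Zfand2a (-1.05, adjusted p 0.0404). Over all tested genes a similar share, 7.67%, passed and were lower. Pomp, which helps the beta rings mature, had 1182, 1204, 1552 and 1306 CPM in female 1 to 4, against 554, 826, 1103 and 996 CPM in male 1 to 4, a log2 difference of 0.63 (SE 0.26, adjusted p 0.446, and 0.48 without both replicate 1 libraries). Female 1 at 1182 CPM was the lowest of its label and male 3 at 1103 CPM the highest of the other, so these groups did not overlap. Uba6, an enzyme that activates ubiquitin, had 40.6, 64.4, 35.7 and 42.7 CPM in female 1 to 4, against 110.0, 77.5, 58.4 and 80.1 CPM in male 1 to 4, a difference of -0.82 (SE 0.25, adjusted p 0.446, and -0.62 without both replicate 1 libraries). Ube2k, a ubiquitin-conjugating enzyme, differed by -0.56 (SE 0.27, adjusted p 0.446, and -0.36 without both replicate 1 libraries). Nfe2l1 had 308, 354, 206 and 338 CPM in female 1 to 4, against 308, 336, 337 and 335 CPM in male 1 to 4, a 1.72-fold range with its lowest value in female 3, and a difference of -0.15 (SE 0.21, adjusted p 0.724, and -0.20 without both replicate 1 libraries). Adrm1, a ubiquitin receptor of the regulatory particle, differed by -0.11 (SE 0.24, adjusted p 0.817, and 0.04 without both replicate 1 libraries).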

How the data were processed

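Total RNA of 8 dorsal root ganglion libraries was examined; the ribosome profiling data of the series were not analysed here. The deposited tables hold 1 column per library whose values the authors scaled to counts per 1000000 counted reads (CPM): each column sums to that total, and between 98.3% and 98.6% of the values under 200 reads are whole multiples of 1 step per library, within 0.05 reads, the same for every gene. The columns are named TPM, but no division by gene length was found, so they were read as CPM. Members gave whole reads in every library for 45 of 46. Tools in the submitters' processing notes were Cufflinks 2.2.1, Bowtie2 2.2.9, TopHat2 2.1.1 and FastQC 0.11.5, with the builds mm10 and GRCm38.p4. Which annotation, strand setting and filters the authors used is not given in the sources used here.

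Rows with the same symbol were summed (110 symbols), and groups were taken from the labels. The labels were compared with limma 3.58.1 in R 4.3.3, with a mean-variance trend, on log2(CPM + 1), which understates changes of low genes. Genes that averaged 1 CPM or more entered, the adjustment ran over all 14505 of them, and the threshold was 0.05. TMM and median ratio factors were computed from the deposited values. A floor of 3 reads was used for a value of 0 and covers counting error only. Alternatives changed the pseudocount, filter or scaling, added array weights or a block for the replicate number, or left out libraries. Same-numbered libraries deviated together with correlations of -0.31, 0.70, -0.15 and 0.44 for replicates 1 to 4, so the numbers were not taken to pair them. The fit was tested on made-up data with known changes.

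Gene models came from GENCODE M21 and promoters from RefSeq, both GRCm38. Near-identical transcripts were sought with BLAST+ 2.17.0 (at least 95% identity over at least 100 of the last 300 bases). Python 3.11.15, pandas 2.3.3, scipy 1.17.1 and matplotlib 3.10.9 were used. Members and lists were chosen with earlier results of these data known. Every library's value was to be given, in each role, for the highest gene, for those with the most positive and most negative difference, for any past the threshold, and for Psmb5, Psmb6, Psmb7, Psmb10, Psmd14, Psme1, Psme2, Psme3, Psme4 and Psmf1; of the pathway list, the 3 with the smallest unadjusted p and Pomp, Nfe2l1 and Adrm1 were named. Psma6, Psmd4 and other genes given by range were named after their values were seen.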

Additional observations from a re-analysis of the deposited data

Results flagged for a closer look

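Within the 4 libraries of a label, 4 values of the named members stood far from the other 3, among 48 such groups examined, where chance gives about 5% of independent groups. These groups share their libraries, and some members were named for their extreme differences, so that rate does not apply to them and no conclusion is drawn from it. Psma2, the alpha subunit, had 882 CPM in female 2, against 105 to 231 CPM in the other libraries labelled female. Psmb6, the caspase-like subunit, had 279.8 CPM in female 2, against 48.6 to 79.9 CPM in the others. Psmf1, the inhibitor, had 62.2 CPM in female 2, against 29.8 to 35.1 CPM. Psme1, the activator subunit, had 2.26 CPM in male 4, against 5.39 to 5.86 CPM in the other libraries labelled male. Female 2 thus held 3 of the 4 values, each on the side of male 1, 2 and 3.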

How the results depend on the processing

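The count of members past the threshold was 0 under both other pseudocounts, all 3 other filters, both other scalings and the replicate block, and the count of all genes was 0 there too. With the replicate number as a block the members' median difference was -0.07, as without it. In a balanced design the block cannot change these differences, so the equal median is no check. It does change the error: in limma the SE of Psma2 went from 0.67 to 0.41, and the adjusted p of Psma7 from 0.446 to 0.234. No call changed. With array weights 4363 genes and 18 members passed. Leaving out each library in turn gave 0 to 1354 genes, 0 to 10 members and a member median between -0.12 and 0.09; the highest counts came without female 2. Without both replicate 1 libraries 6 genes passed, and without these and male 2 it was 4 genes, with a member median of 0.23; why was not tested. Of 456 values of 24 named members under 19 alternatives, 38 in 11 members had the other sign than with all libraries and the deposited scaling, and 21 passed. With median ratios these were Psmb7 0.0180, Psmc3 0.14, Psmd5 0.0243, Psme2 0.19 and Psme3 0.11. With TMM they were Psmc3 0.0853, Psme2 0.13 and Psme3 0.0594, and with array weights Psmd5 0.20, Psme1 -0.0277 and Psme2 0.0606. Without both replicate 1 libraries they were Psmb7 0.15, Psmc3 0.0588, Psmc6 0.0054, Psme2 0.0939 and Psmg4 0.14. Over all settings that left out libraries, values ran between -1.49 and 0.18 for Psma2, -0.44 and 0.45 for Psmb7, -0.33 and 0.24 for Psmc3, -0.49 and 0.0848 for Psmc6, -0.0541 and 0.30 for Psmd14, -0.13 and 0.62 for Psme1, -0.12 and 0.19 for Psme2, -0.11 and 0.23 for Psme4 and -0.64 and 0.46 for Psmg4. The planned count test was not run, since the deposited values are not all whole reads. Depth gave Psme1, the lowest tested member, few reads, so its differences are the least precise by counting.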
